A study of Mus musculus with 30 samples.

Results

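Primary mouse myotubes kept on micropatterned gelatin were compared between day 7 (D7) and day 4 (D4) of differentiation. The comparison rests on 6 of the 30 RNA-seq libraries of the series, chosen by their labels as primary cells on Patterned Gelatin at D4 (3 libraries) or D7 (3 libraries). The myoblasts came from hindlimb muscle of 3 adult C57/Bl6J mice, a source that the paper's results section names as gastrocnemius. No transgene, treatment or deletion is named in the labels, and each time point was sampled from 3 separate cultures. At both times the cells grew in low-serum differentiation medium on a transglutaminase-crosslinked gelatin hydrogel molded with parallel lanes, so the labels set the groups apart by days of differentiation alone. The labels do not say whether a replicate number marks an animal, and the paper does not say whether cells of the mice were pooled. The p-values therefore speak for these cultures alone. Those from comparisons within a replicate number measure how the change from D4 to D7 varied between the numbers. They do not measure how levels varied between cultures. A brief trypsin step at harvest removed part of the cells that had not fused, so a library reflects an enriched and not a pure myotube sample. The 3 primary myoblast libraries of day 0, from cells on plastic, and the 6 libraries of C2C12 myotubes on patterned gelatin, an immortalised mouse myoblast line, served as references. The D4 libraries held 27025988 to 28479383 estimated transcript counts and the D7 libraries 20516942 to 29855286.

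Myoblasts that lose serum leave the cell cycle, switch on muscle regulators in a fixed order, and fuse into multinucleated myotubes. MYOD1 and MYF5 commit cells to muscle, MYOG starts terminal differentiation, and MYF6 persists in mature fibres. MYMK and MYMX are the membrane proteins that let myoblasts fuse. Myotubes then assemble sarcomeres, couple the membrane to calcium release, and gradually replace embryonic and neonatal myosins with adult ones, a change that in the animal depends on nerve and load.

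The libraries carried the expression of skeletal muscle. Summed over 10 skeletal muscle markers, levels were 43805 to 50796 counts-per-million (CPM) at D4 and 44414 to 70198 CPM at D7, against 6799 to 10258 CPM in the day 0 myoblasts. Ttn alone, at 25600 to 26604 CPM at D4 and 32286 to 47529 CPM at D7, made up the larger part of each sum. Each of the other markers was lower at D7 in the libraries with replicate number 3, and they moved both ways in numbers 1 and 2. Libraries with the same replicate number deviated together. Deviations of genes from their group means had a correlation of 0.57 for the libraries numbered 1, 0.48 for those numbered 2 and 0.76 for those numbered 3, and between different numbers the correlation ran from -0.63 to 0.36. Every negative correlation involved number 3, and those between numbers 1 and 2 were 0.26 and 0.36. Number 3 stood apart from the other two. On the first principal component, which held 60% of the variance, its libraries lay at 65.2 and 68.4, whereas the other 4 lay between -39.6 and -25.8. Hoxa11, a positional regulator of the limb, was at 0.39 to 0.81 CPM in number 3 on days 0, 4 and 7, and at 12.9 to 21 CPM in the libraries of numbers 1 and 2. The D4 and D7 libraries that share a number are called a replicate, a term taken from the label alone, and values are listed in the order replicate 1, 2 and 3.

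**Figure D1:**
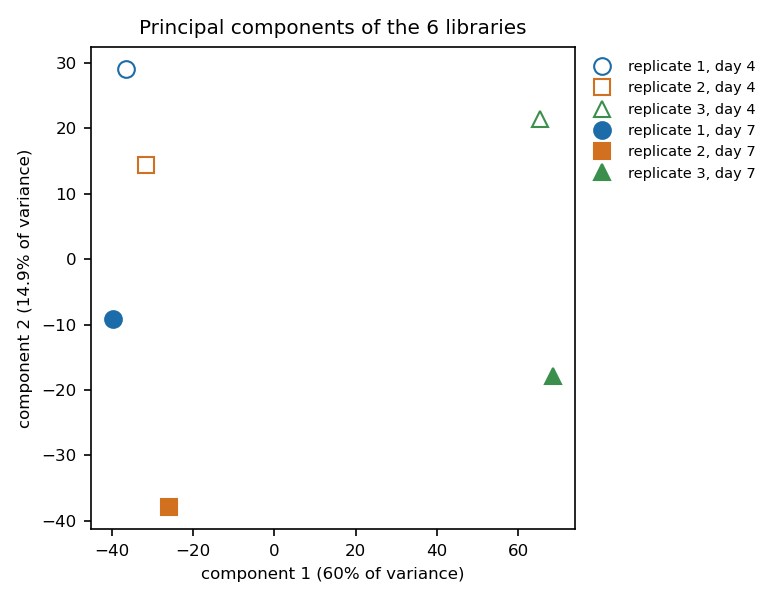
Scores of the 6 libraries on the first (60% of variance, x axis) and second (14.9%, y axis) principal components of log2 CPM, with colour and shape for the replicate, open symbols for D4 and filled symbols for D7. Replicate 3 sits alone on the first component at both times, and within each replicate D7 lies below D4 on the second.

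Between D4 and D7 primary myotubes raised the Z disc genes Xirp2 and Myot, the slow myosin light chain Myl2 and the late regulator Myf6, and lowered the fusion gene Mymx, the regulators Myod1 and Myog, the proliferation marker Mki67 and the collagen gene Col6a1. These calls came from the comparison within replicates (edgeR quasi-likelihood test with the replicate number as a block, adjusted p under 0.05, 6 libraries), in which 407 of 14278 genes passed, or 2.85%. Of these, 201 rose (1.41% of genes tested) and 206 fell (1.44%). They moved the same way in all 3 replicates for 404 genes, which a test within 3 pairs favours by its choice of genes. Among all genes tested, 20.9% were higher and 22.4% lower at D7 in all 3 replicates. Of the 407, 95 changed more than 2-fold. The median log2 change over all genes tested was -0.01.

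These calls depended on comparing within replicates. With the libraries treated as unrelated samples (edgeR, all 9 primary libraries), 0 of 14352 genes passed (0%), with 666 at an unadjusted p under 0.05 (4.64%), while DESeq2 on the same libraries called 43, of which 36 were among the 407. Adding the block to the 9-library fit also gave 0 calls with edgeR, with 1682 genes at an unadjusted p under 0.05, and limma on log2(TPM + 1) called 4 genes with the block and 0 without it. Without replicate 2 the paired test called 147 genes, of which 110 were among the 407, and without replicate 1 it called 360, of which 221 were. The biological coefficient of variation was 0.293 in the 9-library fit without the block and 0.104 in the 6-library fit with it, which had 2 residual degrees of freedom and differs in both libraries and block. Raw levels of the groups overlapped for 222 of the 407 genes and did not overlap for 185, as against 10.7% non-overlapping among all genes tested.

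Xirp2, which encodes a Z disc-associated actin-binding repeat protein, was one of the genes with the highest log2 changes. Its level was 317, 206 and 646 CPM at D4 and 1827, 1495 and 2058 CPM at D7 in replicates 1, 2 and 3. The log2 change was 2.35 ± 0.22 (SE, n = 3 pairs; edgeR adjusted p = 0.0103). Every D7 library stood above every D4 library. The choice of Xirp2 fixed that its groups did not overlap. The same holds for Myl2, Fhl1, Mapt, Fbxo40, Abcb4, Scn3a, Sypl2 and Myf6, which rose, and for Cdk1 and Fgf21, which fell. All were named for the size of their change among called genes whose groups did not overlap. Xirp2 (ENSMUSG00000027022) lies on the plus strand of chromosome 2 at 67446002 to 67526614 (GRCm38).

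Myl2, the slow and cardiac regulatory myosin light chain, was at 15.5, 18.1 and 9.14 CPM at D4 and 78.9, 81.7 and 38.6 CPM at D7. The rise was of similar size in all replicates (log2 change 2.20 ± 0.08, edgeR adjusted p = 0.000286). Myl2 (ENSMUSG00000013936) lies on the plus strand of chromosome 5 at 122100951 to 122113472 (GRCm38). Fhl1, a LIM-domain protein of the sarcomere, rose from 119, 145 and 224 CPM to 700, 482 and 457 CPM (log2 change 1.77 ± 0.26, edgeR adjusted p = 0.0262). Replicate 3 was highest of the D4 libraries and lowest of the D7 libraries.

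Of 33 Z disc genes tested, 3 rose and 2 fell, with a median log2 change of 0.22. Over all genes tested 1.41% rose and 1.44% fell, the background for each list count of the full paired fit below. Myot, myotilin, rose from 34.1, 62.1 and 13 CPM to 132, 132 and 22.6 CPM (log2 change 1.31 ± 0.20, edgeR adjusted p = 0.0275), with replicate 3 lowest at both times. Synm, the intermediate filament synemin, rose by 1.40 ± 0.26 on the log2 scale. Those that fell were Ankrd2, a stretch-responsive ankyrin protein, and Igfn1, a Z disc immunoglobulin-domain protein, with log2 changes of -1.01 ± 0.14 and -0.95 ± 0.16. The list held members moving in both directions.

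In the thick filament and M band list 2 of 27 genes rose and 0 fell (median 0.16), the risers being Myl2 and Fhl1. Among 25 thin filament genes, Tmod4, a cap of actin pointed ends, rose by 1.76 ± 0.35 and Tnnt1, the slow troponin T, fell by 0.54 ± 0.09 on the log2 scale. Tnnt1 went from 225, 295 and 497 CPM to 171, 209 and 300 CPM. Of the 13 slow fibre isoforms tested, Myl2 and Tnnt1 were the ones called, and they moved in opposite directions. Of 20 fast fibre isoforms tested 0 passed, with a median log2 change of 0.15, and of 10 embryonic, neonatal and cardiac isoforms 0 passed, with a median of -0.21.

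In excitation-contraction coupling, 3 of 37 genes rose and 0 fell (median 0.08). Atp2a3, a calcium pump of the reticulum, rose from 9.04, 9.73 and 21.7 CPM to 16.6, 20.1 and 42.8 CPM (log2 change 0.96 ± 0.09, edgeR adjusted p = 0.00993). Asph, the gene of junctin and aspartyl hydroxylase, rose by 0.42 ± 0.07, and Sypl2, a junctional membrane protein also called mitsugumin, rose by 1.51 ± 0.25. Values for Ryr1, the calcium release channel, were 2368, 2802 and 2160 CPM at D4 and 3020, 3780 and 2453 CPM at D7, which did not pass (adjusted p = 0.163). The costamere list had 2 genes that rose and 0 that fell of 33, namely Sgcd, delta-sarcoglycan (0.71 ± 0.12), and Sptb, beta-spectrin (0.92 ± 0.17).

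**Figure D2:**
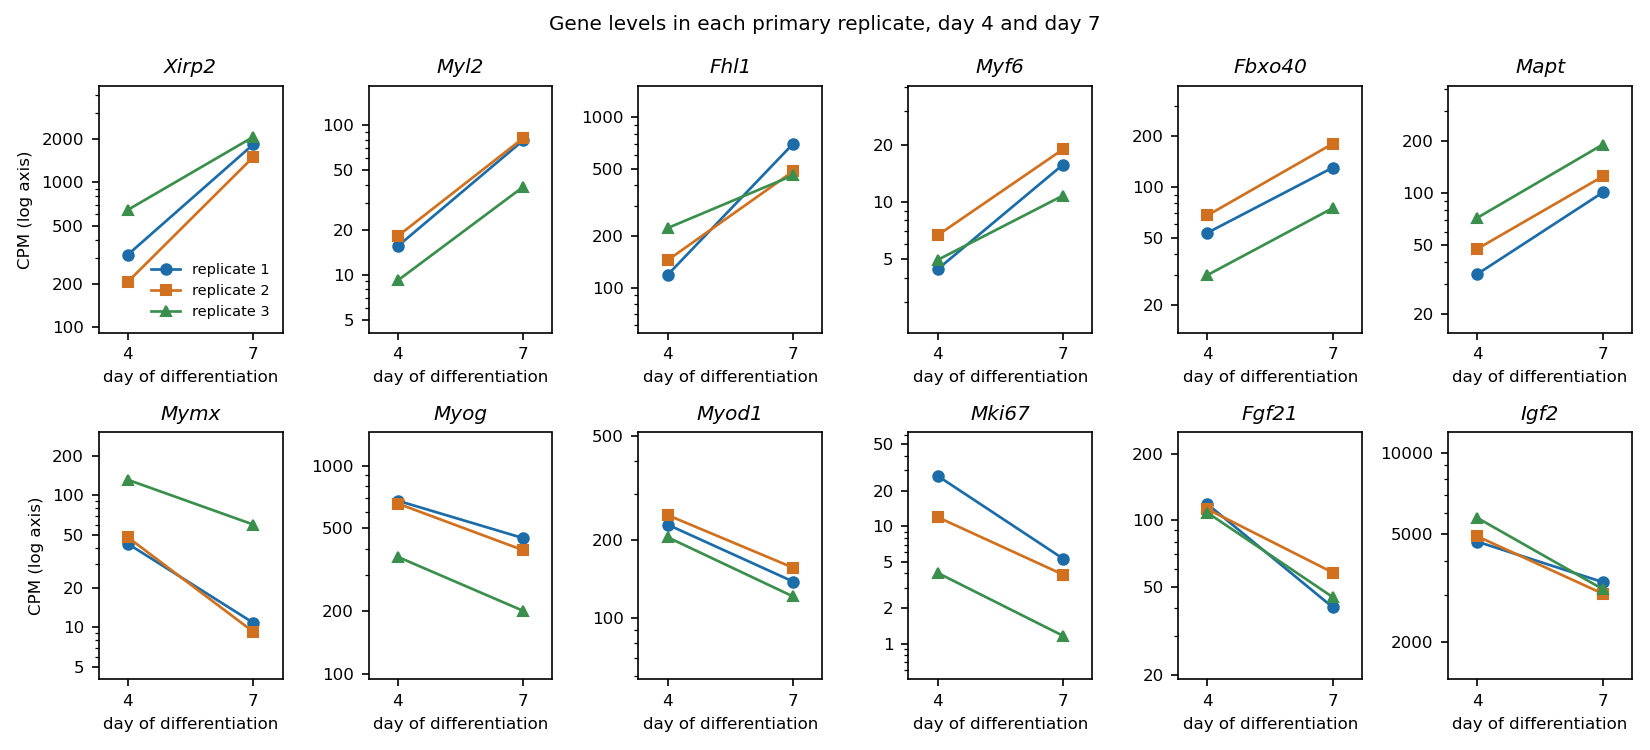
CPM (log axis) of 12 named genes at D4 and D7 in each of the 3 replicates, each line joining the libraries of 1 replicate. All 3 lines rise for Xirp2, Myl2, Fhl1, Myf6, Fbxo40 and Mapt and all 3 fall for Mymx, Myog, Myod1, Mki67, Fgf21 and Igf2, while the replicates differ in level.

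Other genes named by size of change lay outside the contractile lists. Mapt, the microtubule-associated protein tau, rose from 34.1, 47.7 and 72.1 CPM to 101, 125 and 191 CPM (log2 change 1.45 ± 0.07, edgeR adjusted p = 0.000808). Fbxo40, a muscle F-box protein of ubiquitin ligases, rose from 53.6, 67.9 and 30.2 CPM to 130, 180 and 75 CPM (log2 change 1.33 ± 0.07, edgeR adjusted p = 0.000842). Abcb4, a phospholipid transporter, rose by 2.35 ± 0.21 from D4 levels between 0.639 and 2.68 CPM, and Scn3a, a sodium channel alpha subunit, rose by 1.31 ± 0.11.

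Myosin heavy chains were compared as shares of the summed transcripts-per-million (TPM, a per-length scale) of 6 genes. Myh3, the embryonic myosin, made up 55.5, 47.4 and 22% of the sum at D4 and 39.2, 33.7 and 19.5% at D7. Myh1, the adult fast 2X myosin, made up 18.9, 25.7 and 60.3% at D4 and 28.1, 31 and 62.8% at D7. The Myh3 share was lower and the Myh1 share higher at D7 in every replicate. An exact sign-flip permutation test over 3 replicates cannot fall below a two-sided p of 0.25, so the shares are given as a description.

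Replicate 3 already held more Myh1 than Myh3 at D4, and its order of shares did not change. Myh8, the neonatal myosin, went from 17.3, 19.4 and 12.5% to 21.9, 25.9 and 12%. Myh4, the adult 2B myosin, went from 0.352, 0.773 and 1.33% to 1.66, 1.59 and 1.88%, and Myh2, the adult 2A myosin, from 0.0149, 0.0282 and 0.0193% to 0.143, 0.126 and 0.0681%. The shares of Myh4 and Myh2 were higher at D7 in each replicate. A higher share was not always a higher level. In replicate 3 Myh1 went from 1607 to 1036 TPM and Myh4 from 35.5 to 31 TPM, while Myh2 went from 0.515 to 1.12 TPM. In replicates 1 and 2 the TPM of Myh1, Myh4 and Myh2 rose. Summed TPM of the 6 genes ran 4107, 5170 and 2664 at D4 and 5316, 5086 and 1649 at D7, which was higher at D7 in replicate 1, nearly level in replicate 2 and lower in replicate 3. None of the 6 genes passed in CPM: the lowest adjusted p was that of Myh2, whose log2 change was 2.39 ± 0.50 (edgeR adjusted p = 0.0563). These genes are close in sequence, and how the counting divided shared reads is uncertain.

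**Figure D3:**
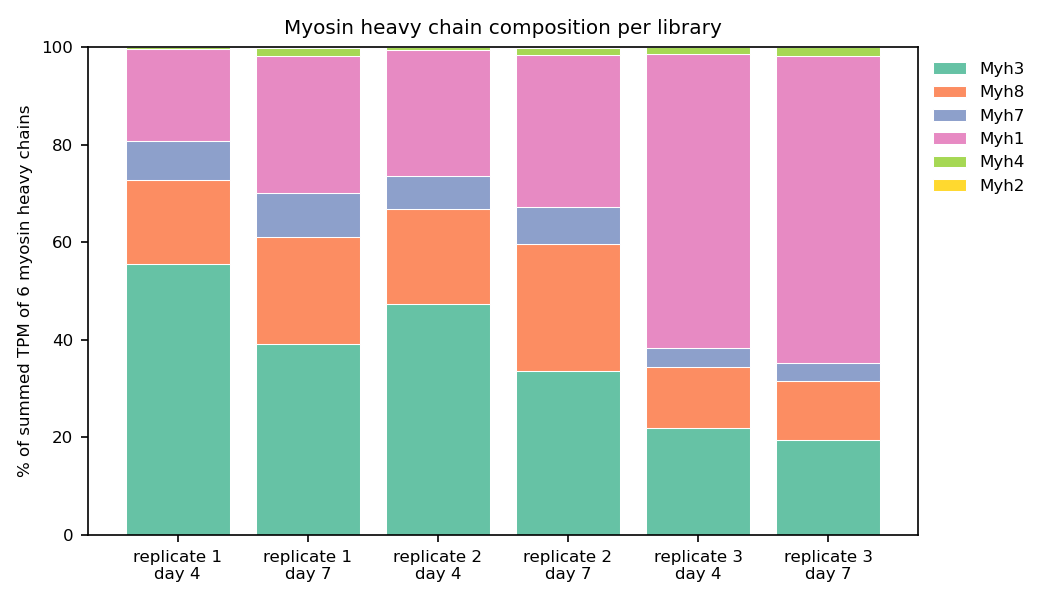
Share (%) of the summed TPM of 6 myosin heavy chain genes taken by each gene in each of the 6 libraries, stacked to the whole. The Myh3 part shrinks and the Myh1 part grows from D4 to D7 in each replicate, and replicate 3 differs from replicates 1 and 2 at both times. Parts are shares and not levels: Myh1 TPM fell in replicate 3.

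Myogenic regulators moved in both directions, with 3 of 28 genes rising and 5 falling (median log2 change -0.26). Myf6 rose from 4.43, 6.68 and 4.96 CPM to 15.7, 18.9 and 10.8 CPM (log2 change 1.48 ± 0.15, edgeR adjusted p = 0.0115). Mef2c, a partner of the MYOD family, rose from 1441, 1418 and 630 CPM to 2451, 2222 and 1064 CPM (log2 change 0.72 ± 0.09, edgeR adjusted p = 0.0205). Eya1, a transcriptional co-activator, rose by 0.74 ± 0.13 while Six4, a homeobox factor, fell by 0.54 ± 0.08. For Mef2c replicate 3 at D7 lay below replicates 1 and 2 at D4.

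Myod1 fell from 228, 248 and 204 CPM to 138, 156 and 121 CPM (log2 change -0.72 ± 0.07, edgeR adjusted p = 0.0103). Myog fell from 679, 658 and 365 CPM to 449, 393 and 201 CPM (log2 change -0.74 ± 0.09, edgeR adjusted p = 0.017). The fall of Myod1 left no overlap between days, while for Myog replicate 3 at D4 lay below replicates 1 and 2 at D7. Id1, an inhibitor of MYOD binding, fell by 0.68 ± 0.13. Myf5 was at 2.83, 3.85 and 9.55 CPM at D4 and 0.822, 5.03 and 13 CPM at D7, with no change called (edgeR adjusted p = 0.91).

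Fusion genes fell where they were called. Mymx went from 42.9, 48 and 131 CPM to 10.8, 9.24 and 60 CPM (log2 change -1.77 ± 0.21, edgeR adjusted p = 0.017), and Myof, the membrane-repair and fusion protein myoferlin, fell by 0.59 ± 0.10. Together they were the 2 of 20 fusion genes called, with a list median of -0.16. Mymk, the partner of MYMX, was at 1352, 1490 and 1312 CPM at D4 and 1001, 1043 and 1070 CPM at D7, lower in each replicate, but the log2 change of -0.42 ± 0.09 did not pass (edgeR adjusted p = 0.0649).

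Of 50 cell cycle genes of S phase and mitosis tested, 6 fell and 0 rose, the median log2 change was -0.59 against -0.01 for all genes, and 47 lay below 0. Mki67, a marker of cycling cells, went from 27, 12 and 4.02 CPM to 5.32, 3.89 and 1.17 CPM (log2 change -1.97 ± 0.18, edgeR adjusted p = 0.00993), against a mean of 148 CPM in the day 0 myoblasts. Cdk1, the mitotic kinase, went from 10.9, 7.78 and 6.66 CPM to 4.29, 2.54 and 4.21 CPM (log2 change -1.20 ± 0.20, edgeR adjusted p = 0.0353). Ccna2, Cdc20, Rrm2 and Uhrf1, which act in replication and division, completed the called set. In bulk RNA, fewer cycling cells and less of these transcripts per cell cannot be told apart. The called set shrank to 1 gene of the list when replicate 1 or replicate 2 was left out. Over all genes, 205 fell without replicate 1 and 63 without replicate 2, against 206 with all replicates.

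The day 4 level of cell cycle genes differed between replicates. Summed over the list it was 635, 463 and 379 CPM at D4 and 368, 355 and 417 CPM at D7, so the sum was lower in replicates 1 and 2 and higher in replicate 3. The median log2 ratio by replicate was -1.04, -0.61 and -0.26.

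Genes of satellite and reserve cells, the undifferentiated cells kept beside myotubes, fell in 6 of 28 cases and rose in 0 (median -0.37). These were Rgs5, a G-protein regulator also used as a pericyte marker, Notch1, Megf10, Hes6, Met and Spry1. Megf10, an engulfment receptor of satellite cells, went from 351, 366 and 560 CPM to 251, 244 and 311 CPM (log2 change -0.64 ± 0.09, edgeR adjusted p = 0.0266). Notch1, a receptor that holds myoblasts undifferentiated, went from 121, 146 and 109 CPM to 90.6, 106 and 77.3 CPM (log2 change -0.46 ± 0.06, edgeR adjusted p = 0.0209). Pax7, the defining factor of these cells, was lower in each replicate but did not pass (edgeR adjusted p = 0.102). Of 15 Notch pathway genes, Notch1 and Hes6 fell and 0 rose, with a median of -0.34. Without replicate 2 the satellite cell list had 1 gene that fell, and without replicate 1 it had 4, against 63 and 205 over all genes.

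**Figure D4:**
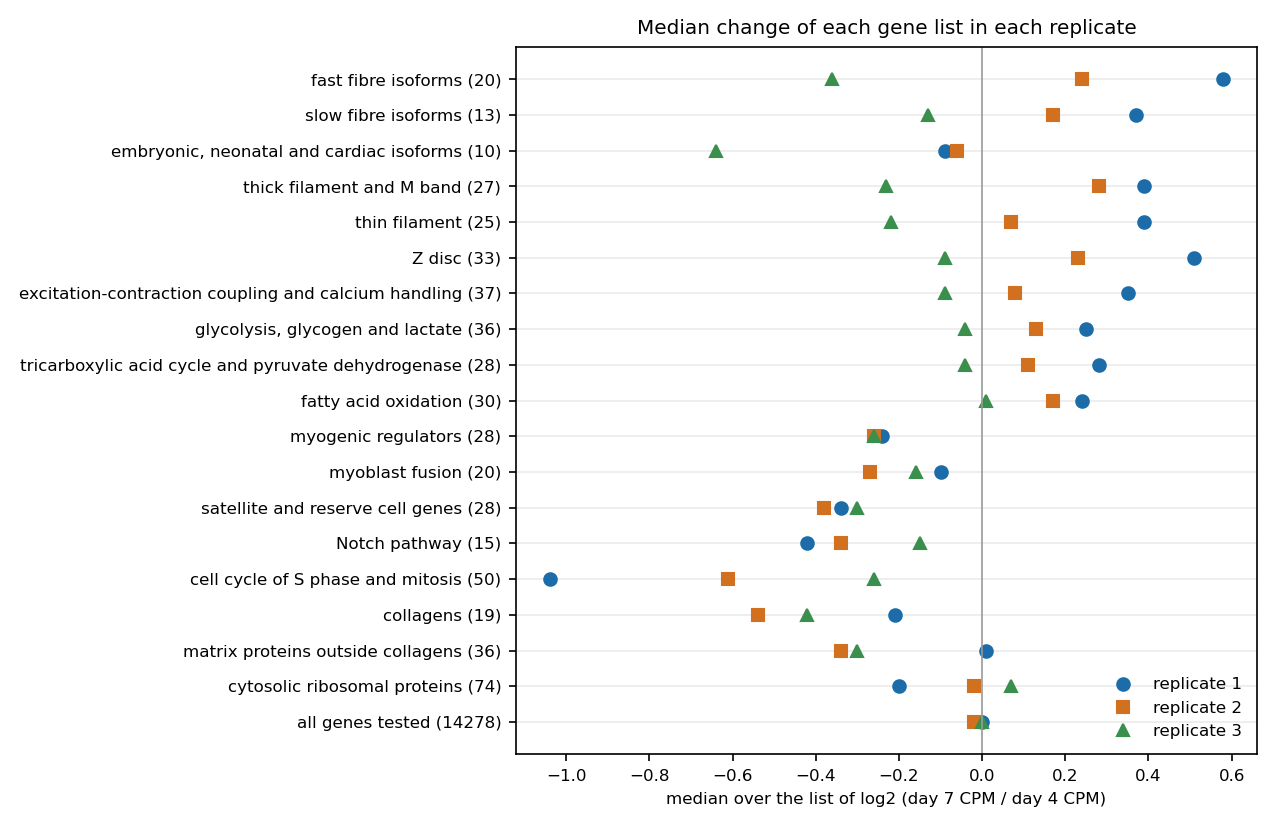
Median log2 ratio of D7 to D4 CPM within each replicate for 18 gene lists and for all genes tested, 1 point per replicate. Cell cycle, satellite cell and collagen lists lie below 0 in all 3 replicates, and the fast fibre, thick filament and thin filament lists lie above 0 in replicates 1 and 2 and below 0 in replicate 3.

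Replicate 3 went lower at D7 in several genes of adult muscle that did not fall, or fell little, in replicates 1 and 2. Ckm, the muscle creatine kinase, went from 204, 284 and 65.5 CPM at D4 to 583, 420 and 11.1 CPM at D7, so that it rose in replicates 1 and 2 and fell in replicate 3 (edgeR adjusted p = 0.98). Atp2a1, the fast-fibre calcium pump, was at 1676, 2270 and 1216 CPM at D4 and 2317, 2132 and 393 CPM at D7 (edgeR adjusted p = 0.574). The median log2 ratio of the fast fibre list was 0.58, 0.24 and -0.36 in the 3 replicates, and that of the thick filament list 0.39, 0.28 and -0.23. Transcripts of the mitochondrial genome summed to 73211 and 72256 CPM at D4 and D7 in replicate 3 and to 48223 to 50851 CPM in the other 4 libraries. What sets replicate 3 apart was not tested.

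Leaving out both libraries of replicate 3, an alternative added after the data were seen, raised the calls to 721, with 411 higher (2.92%) and 310 lower (2.20%) of 14067 genes, on 1 residual degree of freedom. The calls then included 11 of 27 thick filament and M band genes that rose, 8 of 33 Z disc genes that rose and 2 that fell, and 7 of 37 excitation-contraction coupling genes that rose. In the fast fibre list 5 of 20 rose and 1 fell, with Myh2 at a log2 change of 2.98 ± 0.32 (edgeR adjusted p = 0.00715) and Myh4 at 1.83 ± 0.32 (adjusted p = 0.025). Ckm, which is not in that list, rose by 1.04 ± 0.20 (adjusted p = 0.0298). Cell cycle genes fell in 17 of 50 cases and satellite cell genes in 10 of 28, with 0 and 1 rising. Of the 407 calls, 348 were among the 721.

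Leaving out replicate 1 or replicate 2 also moved the list counts, along with the calls over all genes. Without replicate 1, 155 of 13911 genes rose and 205 fell, and without replicate 2, 84 of 14024 rose and 63 fell. Among myogenic regulators, 2 rose and 5 fell without replicate 1, and 1 rose and 2 fell without replicate 2. The Z disc list had 3 that rose and 2 that fell without replicate 1, and 2 and 1 without replicate 2. In excitation-contraction coupling 1 gene rose in each case, and at the neuromuscular junction 2 rose and 1 fell without replicate 1 and 1 rose without replicate 2. Collagen genes fell in 7 cases without replicate 1 and in 5 without replicate 2, and other matrix genes in 8 and 4, with 0 and 1 rising. Fusion genes fell in 2 cases and 1 case.

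Few metabolic genes were called. In the list of glycolysis, glycogen and lactate, Gbe1, the glycogen branching enzyme (0.63 ± 0.08), and Gyg, the glycogenin that primes glycogen (0.39 ± 0.07), rose, and 0 of 36 genes fell. Ppp1r3c, which targets a phosphatase to glycogen, went from 21.5, 21.7 and 26.2 CPM to 64.7, 46 and 56.9 CPM (log2 change 1.26 ± 0.11, edgeR adjusted p = 0.00993). It belongs to none of the fixed lists and was named after its values were seen. Cpt1b, the muscle form of the enzyme that admits fatty acids to mitochondria, rose by 0.59 ± 0.09 while Cpt1a, the form of other tissues, fell by 0.48 ± 0.08. Acacb, which makes the inhibitor of that step, rose by 1.06 ± 0.13, and Perm1, a regulator of mitochondrial genes in muscle, rose by 2.13 ± 0.29 from D4 levels between 0.414 and 1.8 CPM. No gene was called among 28 of the tricarboxylic acid cycle (median 0.12), 79 nuclear oxidative phosphorylation subunits (0.07) and 13 mitochondrial transcripts.

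Of the secreted signals named, Fgf21 and Igf2 fell and Ostn rose. Fgf21, a hormone of the integrated stress response, went from 118, 112 and 108 CPM to 40.3, 57.9 and 44.8 CPM (log2 change -1.26 ± 0.11, edgeR adjusted p = 0.00993). Igf2, an insulin-like growth factor, went from 4702, 4920 and 5753 CPM to 3336, 3024 and 3143 CPM (log2 change -0.69 ± 0.12, edgeR adjusted p = 0.0392). Fgf21 was 1 of 28 stress response genes called and Igf2 1 of 18 genes of its pathway, with list medians of -0.10 and -0.16. Ostn, the musclin of muscle and bone, went from 3.76, 0.404 and 1.43 CPM to 13.4, 3.37 and 3.74 CPM (log2 change 1.94 ± 0.29, edgeR adjusted p = 0.0275), and was named after its values were seen.

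At the neuromuscular junction, Ache, the acetylcholinesterase, rose from 6.29, 15.9 and 2.37 CPM to 22.3, 37.6 and 3.9 CPM (log2 change 1.34 ± 0.19, edgeR adjusted p = 0.0227), and Colq, its collagen tail, rose by 0.91 ± 0.12. Erbb3, a neuregulin receptor, fell from 428, 480 and 372 CPM to 283, 312 and 271 CPM (log2 change -0.56 ± 0.08, edgeR adjusted p = 0.0213). The anchored enzyme and its tail rose together, and the other 17 of the 20 genes tested had no call. Chrng, the embryonic receptor subunit, was at 655 to 873 CPM at D4 and 551 to 774 CPM at D7, and Chrne, the adult one, at 0.26 to 1.14 and 0.312 to 1.51 CPM.

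Collagen genes fell in 4 of 19 cases and rose in 0 (median -0.38). Col6a1, a chain of the collagen around fibres, went from 20.1, 7.01 and 2.33 CPM to 5.72, 2.13 and 0.39 CPM (log2 change -1.91 ± 0.19, edgeR adjusted p = 0.0109). Col3a1, a fibrillar collagen, went from 241, 124 and 25 CPM to 162, 58.4 and 10.2 CPM (log2 change -0.95 ± 0.13, edgeR adjusted p = 0.0214). Col18a1 and Col19a1, chains of basement membrane zones, fell as well, and so did Vcan, Loxl1 and Emilin1 among 36 other matrix genes, with 0 rising. Levels differed between replicates, with replicate 1 at D7 holding more Col3a1 than replicates 2 and 3 at D4. Scx, a tendon regulator, went from 57.8, 49.3 and 76.3 CPM to 27.8, 24.3 and 40.1 CPM, with no overlap between days (edgeR adjusted p = 0.00299). It was the 1 called of 3 tendon markers tested, whose median log2 change was 0.03. Mkx, at 3.91, 3.78 and 13.1 CPM and then 3.68, 4.05 and 13.8 CPM, and Egr1, at 44.8, 46.9 and 16.2 CPM and then 60.7, 58.5 and 14.5 CPM, had no call.

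Markers of other cells were set beside the matrix genes. The 16 fibroblast markers summed to 399, 292 and 91.3 CPM at D4 and 341, 184 and 67.3 CPM at D7, with 2 of 16 at 0 in every library (Lum and Tcf21), and Col3a1 and Gsn supplied most of the sum. The 11 of them tested had a median log2 change of -0.34, with 1 that fell, Col3a1, which is also in the collagen list. Pdgfra, a defining marker of fibro-adipogenic cells, was at 1.54 to 2.52 CPM at D4 and 1.14 to 1.36 CPM at D7. The 9 pericyte markers summed to 210 to 294 CPM at D4 and 166 to 258 CPM at D7, of which Abcc9, a potassium channel subunit that was at 0.672 to 18.2 CPM in the day 0 myoblasts, made up 170 to 219 and 147 to 213 CPM. Macrophage and leukocyte markers summed to 5.28 to 7.09 and 6.59 to 7.36 CPM with 4 of 15 at 0, endothelial markers to 13.7 to 21.2 and 13.6 to 15.4 CPM, and the Schwann cell factor Sox10 was at 0 in all libraries. The part of other cells in the fall of matrix genes was not tested.

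Of the 44 gene lists examined, 17 had no call, among them cytosolic ribosomal proteins (74 tested, median -0.06), proteasome subunits (32, 0.04), sterol biosynthesis (25, 0.01), interferon response (31, -0.26) and circadian clock (18, 0.07). Immediate early genes held 2 risers of 28, Fos (0.99 ± 0.11) and Myc (0.64 ± 0.12). In the atrophy list Ddit4 fell by 0.70 ± 0.09 as 1 of 24, and the ubiquitin ligases Fbxo32 and Trim63 were not called (edgeR adjusted p = 0.0664 and 0.357).

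The same step in C2C12 myotubes on patterned gelatin asked which of these changes were shared. Without a block the difference between the changes passed for 6 of 14792 genes (0.0406%; edgeR interaction term), and 1535 had an unadjusted p under 0.05. With the replicate number as a block within the primary cells 213 of 15108 genes passed (1.41%), 58 with a higher and 155 with a lower change in primary cells. The 201 genes that rose in primary cells had a median log2 change of 0.61 there and 0.15 in C2C12, and the 206 that fell had medians of -0.60 and -0.06. The primary medians follow from the choice of genes and the C2C12 ones do not. Of the 407 genes, 254 had the same sign in C2C12 and 153 the opposite, and the share over all genes was not computed. With the block 88 of them had a called difference, against 1.41% of all genes. The choice of the 407 by the same primary libraries favours such calls.

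Regulators and the fusion gene Mymx were among those that differed with the block. The fusion genes Myof and Mymk had no called difference (edgeR adjusted p = 0.635 and 0.236). Myf6 was at 6.9, 4.42 and 5.38 CPM at D4 and 4.39, 5.78 and 4.17 CPM at D7 in C2C12, and its change was 1.70 ± 0.28 higher in primary cells on the log2 scale (edgeR adjusted p = 0.021). Mymx stood at 56.3, 57.6 and 50.2 CPM and then 55.8, 65.4 and 94.8 CPM in C2C12, a difference of -2.20 ± 0.33 (adjusted p = 0.014). Myod1 (-1.05 ± 0.16, adjusted p = 0.0159) and Myog (-0.93 ± 0.15, adjusted p = 0.0171) had lower changes in primary cells than in C2C12. None of the 4 differences called here passed without the block.

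With the block, Fgf21 and Col6a1 also had lower changes in primary cells than in C2C12. Fgf21 was at 29.3, 29.6 and 24.8 CPM and then 24.2, 28.5 and 27.9 CPM in C2C12 (difference -1.20 ± 0.18, edgeR adjusted p = 0.0131). Col6a1 was at 95.6 to 110 CPM at D4 and 105 to 117 CPM at D7 in C2C12 (difference -2.03 ± 0.18, adjusted p = 0.00184). Without the block neither passed (adjusted p = 0.0976 for Fgf21 and 0.547 for Col6a1). Col3a1 (-1.63 ± 0.29, edgeR adjusted p = 0.0274) and the matrix protease gene Adamts4 (-1.11 ± 0.18, adjusted p = 0.0206) also had lower changes with the block. Without it they did not pass (adjusted p = 0.718 and 0.291). The matrix genes Col18a1, Col19a1, Vcan, Loxl1 and Emilin1 had no called difference with the block. Perm1, Ache, Fbxo40, Fos and Myh10 completed the 6 of 72 named genes whose change was called higher in primary cells, and 18 were called lower. The choice of these genes by their primary change favours such calls. For Xirp2 the difference was 0.43 ± 0.63 (adjusted p = 0.737), for Myl2 1.13 (adjusted p = 0.0553), for Mki67 -0.49 (adjusted p = 0.677) and for Igf2 -0.16 (adjusted p = 0.634), none of which passed. A difference that did not pass is not shown to be absent.

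**Figure D5:**
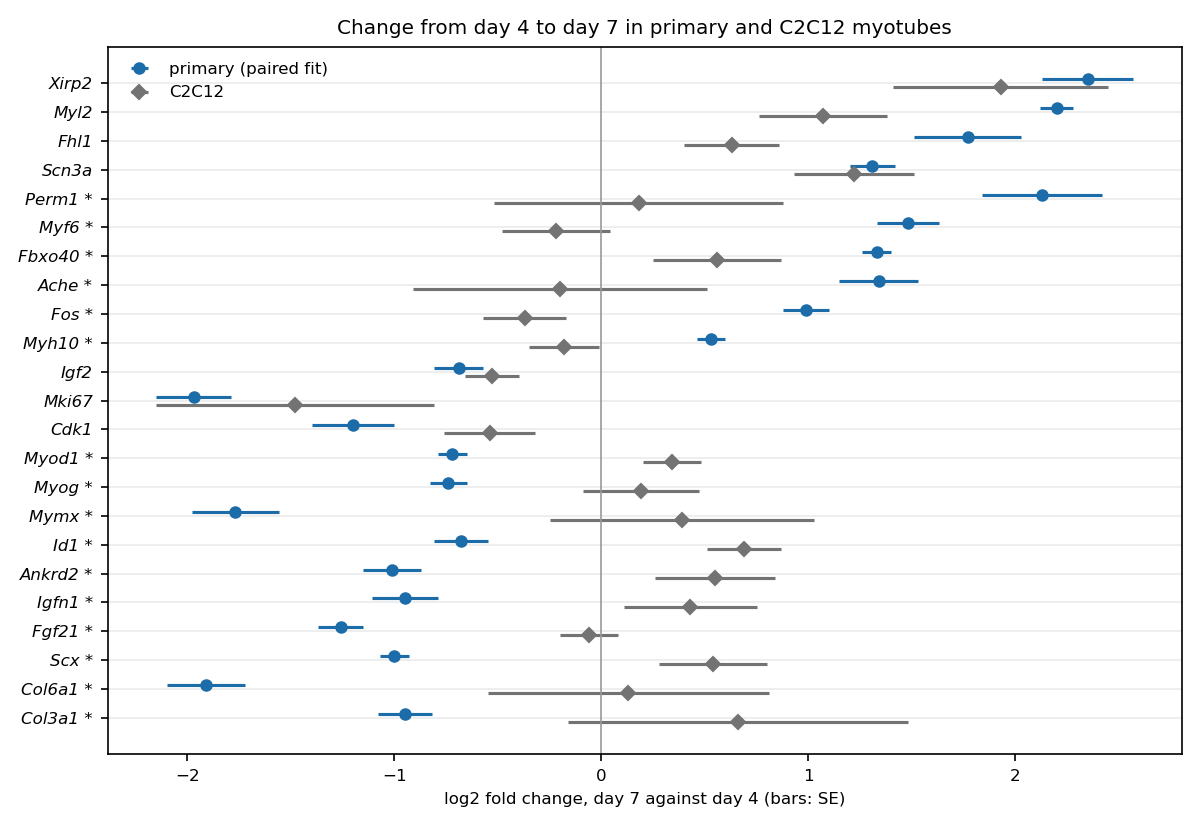
Log2 change from D4 to D7 ± SE for 23 named genes in primary (paired by replicate number) and C2C12 myotubes on patterned gelatin. An asterisk marks a difference with an adjusted p under 0.05 with the replicate block. The C2C12 SE comes from the fit of primary and C2C12 libraries together without the block. That SE carries the spread between primary replicates, so it does not measure C2C12 spread and is not comparable with the primary SE. For Col6a1 it was 0.68, although levels in C2C12 ran from 95.6 to 117 CPM. Myf6, Perm1 and Ache lie well above 0 in primary cells and near 0 in C2C12, Mymx, Col6a1 and Fgf21 lie well below 0 in primary cells and not in C2C12, and Xirp2 lies above 0 in both.

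Transcript usage was tested for genes with 2 or more transcripts (edgeR diffSpliceDGE, 9 libraries), and 50 of 8053 genes passed (0.621%). For all 50 the leading transcript was listed at 0 in at least 1 library, for 40 it was at 0 in all 3 libraries of a day, and for 29 it held under 5% of its gene on both days. Restricting the test to transcripts with a mean share of at least 5% left 4 genes. Mtg2-201, a transcript of a mitochondrial GTPase gene, was at 7.45, 16.6 and 11.7% of its gene at D4 and at 0% in each D7 library (adjusted p = 2.13e-05). Among 39 tested genes of a panel known for splicing changes in muscle, 0 passed, with 1 at an unadjusted p under 0.05. With the replicate block on 6 libraries 1 passed: Tnnt2-207, a transcript of cardiac troponin T, went from 15.9, 7.11 and 12.6% to 5.63, 3 and 0.706% (adjusted p = 0.0266).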

How the data were processed

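The authors pseudoaligned paired-end reads with kallisto to mouse transcripts (mm10 and kallisto per the submitters' processing notes, the kallisto version is not given in the sources used here). They deposited estimated counts and TPM for 88198 transcripts per library. TPM values are scaled by the authors to transcript length and to a common total. Of the transcripts, 86031 matched GENCODE M21 (GRCm38) and were summed to 30205 genes, and unmatched ones were left out (0.759 to 0.802% of the counts in the 6 libraries of D4 and D7, and up to 0.893% in the reference libraries). Estimated counts were rounded, filtered with filterByExpr, scaled by TMM and tested with edgeR 4.0.16 (glmQLFit, Benjamini-Hochberg, adjusted p under 0.05) in R 4.3.3. CPM uses the TMM factors of the 9 primary libraries, and SE was taken as the absolute log2 change over the root of the F statistic.

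The design set the fit without a block as the main one. The replicate numbers were then checked: deviations from group means correlated by 0.48 to 0.76 between same-numbered libraries. The numbers were therefore taken to pair them, and the planned fit of 6 libraries with the replicate number as a block supplies the gene results. Centring on group means lowers correlations between different numbers, and every negative one involved number 3. Between numbers 1 and 2 they were 0.26 and 0.36, against 0.57 and 0.48 within them. The check thus set number 3 apart more clearly than it matched numbers 1 and 2. Alternatives used DESeq2 1.42.0, limma 3.58.1 on log2(TPM + 1) with a pseudocount of 1, other scalings, filters and left-out libraries. On simulated data a 2-fold change was recovered for 23% of changed genes in the 9-library fit without the block. In the 6-library fit with it, such a change was recovered for 100%, and 11 of 211 paired calls were false. The simulation gave all genes the same coefficient of variation, 0.293 or 0.104, taken from the fit under check. It changed only well-counted genes and let no change differ between replicates. The figures hold for that setting and do not measure power or error of the real calls.

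The comparison, the gene lists and the tests were chosen with earlier results of these data known. Genes were named as the 12 highest and 12 lowest log2 changes among called genes with a mean log2 CPM of at least 1 and groups that do not overlap, up to 4 called members per list, and a fixed muscle panel. The rule was applied to the paired calls after the unpaired fit gave none. Symbols of predicted genes (Gm numbers, Rik) were not named, except in the closing section.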

Additional observations from a re-analysis of the deposited data

Results flagged for a closer look

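Without a block, 6 genes had a change from D4 to D7 that differed between primary and C2C12 myotubes (edgeR interaction term, adjusted p under 0.05). Among them, 2 are protein-coding. Prlr, the prolactin receptor, was at 0.893, 1.28 and 1.17 CPM at D4 and 2.5, 2.7 and 2.11 CPM at D7 in primary cells, and at 1.45, 1.23 and 1.83 CPM and then 0.512, 0.526 and 0.432 CPM in C2C12, a log2 difference of 2.72 ± 0.37 (adjusted p = 0.036). Il2ra, the interleukin 2 receptor alpha chain, was at 1.56, 1.43 and 1.62 CPM and then 2.07, 2.23 and 2.34 CPM in primary cells, and at 3.21, 3.13 and 2.8 CPM and then 0.832, 0.642 and 1.08 CPM in C2C12, a log2 difference of 2.37 ± 0.32 (adjusted p = 0.036). Both were higher at D7 in 3 of 3 primary replicates and were lower at D7 in every C2C12 library. In the paired fit of primary cells neither change passed (edgeR adjusted p = 0.0697 for Prlr and 0.268 for Il2ra).

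The other 4 are pseudogenes, whose reads can be shared with near-identical copies. Their log2 differences were -15.65 for Rps6-ps4, -13.52 for Gm13835, -6.82 for Gm6863 and 5.92 for Gm2260, and each was listed at 0 in at least 2 of the 3 C2C12 libraries of a day, so that these fitted values depend on the prior count and are no measure of size.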

How the results depend on the processing

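The unpaired comparison called 0 genes with edgeR under every scaling, filter and left-out library tried, and limma called 0, whereas DESeq2 called 43 and the planned replicate block on 6 libraries 407. Alternatives to that paired fit were added after the data were seen: the replicate block with RLE factors gave 304 calls, with DESeq2 659, without a filter 853 and with limma on log2(TPM + 1) 4, while 6 libraries with no replicate block gave 0 and the replicate block on 9 libraries 0. Without both libraries of 1 replicate number the paired calls ran from 147 to 721. The difference from C2C12 passed for 6 genes and for 185 with DESeq2, 119 with all 30 libraries in the fit, 213 with the replicate block within primary cells, and 1 to 8 with a library left out. Transcript usage passed for 50 genes, for 22 on 6 libraries, 30 with the replicate block on 9 libraries, 4 at a mean share of at least 5%, and 27 to 73 with a library left out. The named calls rest on the block: of 1728 values of 72 called genes under alternatives, 529 kept direction and call, 1196 kept direction but not the call and 3 turned. Direction of genes with a small change turned: Myh7 was at -0.03 with the replicate block on 9 libraries, and Ckm at -0.05 with DESeq2 and the replicate block and -0.15 with limma with and without it. With a library or a replicate number left out, the log2 change ran from -1.93 to 0.05 for Col3a1, -1.11 to 0.04 for Flna, -0.21 to 0.63 for Myh1, -0.78 to 0.12 for Myh3, -0.27 to 0.76 for Myh7, -0.16 to 0.92 for Myh8, -0.22 to 0.50 for Acta1, -0.09 to 0.51 for Actn2, -0.84 to 1.45 for Ckm, -0.86 to 0.38 for Atp2a1, -0.27 to 0.53 for Casq1, -0.75 to 0.06 for Pax7, -0.07 to 1.50 for Chrne and -0.06 to 0.61 for Fbxo32. The causes were not tested.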
